A study of Rattus norvegicus with 6 samples.

Results

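The 200 circular RNAs described here were those whose signal differed least between 6 rat lungs, 3 from saline-injected and 3 from monocrotaline-injected animals. They were taken from 14145 circRNA probes by a rule on the measurements themselves. A probe had to lie well above background on all 6 arrays, which 7325 did, and could not be among the 200 with the highest mean log2 processed signal on the saline arrays. Of the 7125 probes left (the eligible circRNAs), the 200 with the smallest standard deviation (SD) over the 6 columns of the authors' log2 values were kept. Their small spread is therefore given by the choice and is described without a test.

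The lungs came from male rats, given in the labels as 6 weeks old without saying whether at injection or at sampling. The MCT group received 1 intraperitoneal injection of monocrotaline at 60 mg per kg, and the control group received saline. Monocrotaline is an alkaloid of Crotalaria plants. It is activated in the liver and damages the lung vessels, and rats given it are commonly studied as a model of pulmonary arterial hypertension. Lungs were perfused with PBS and taken 28 days after the injection, and all RNA was digested with RNase R before labelling. Each group had 3 samples on 1 array each. The labels number the samples as replicates and do not say whether each came from its own animal, so error terms may not measure the spread between animals. The limma errors also draw on the variance of all circRNAs tested. None of 8 lung cell markers looked for (among them Sftpc, Scgb1a1 and Pecam1) had a linear probe on the array, so the tissue label was not checked against them.

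A circRNA forms when a splice donor joins an upstream acceptor, which closes an exon or several exons into a ring without free ends. Having no ends, it resists exonucleases such as RNase R, and circRNAs tend to be turned over more slowly than the linear transcripts of the same gene. An RNA whose level does not move with a treatment can serve as an internal reference against which others are measured, and candidates for that role are commonly ranked by their spread over samples. The circRNAs are named by array identifier, because the files used here do not pair the probes with host genes. Spot brightness also depends on the probe, so brightness is used below as a property of the measurement and not as an amount of RNA compared between circRNAs.

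The arrays differed in overall brightness. In fluorescence units, the 75th percentile of all processed signals lay at 75.6 to 95.2 on MCT 2 and the saline arrays, but 41.4 on MCT 1 and 32.3 on MCT 3. Those 2 dim arrays had 63.1% and 55.1% of circRNAs well above background, the other 4 between 78.7% and 84.5%. By the scan times in the file headers, the saline arrays and MCT 1 were scanned together, and MCT 2 and MCT 3 in another scan that held no saline array.

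Before scaling, the 200 circRNAs were not even across the lungs. Their median processed signal was 42.3, 33.6 and 45.4 units on saline arrays 1 to 3, and 19.1, 46.9 and 14.2 units on MCT arrays 1 to 3. MCT 2 thus lay with the saline arrays, and MCT 1 and MCT 3 lay far below all 4. For 198 of the 200, the brightest array exceeded the dimmest by more than 2-fold, with a median of 3.36-fold and a range from 1.75-fold to 6.52-fold. Dividing each array's signals by that array's 75th percentile over all probes took most of this away. On this scale, where 0 is the 75th percentile and values are log2, the medians were -1.15, -1.17 and -1.06 on the saline arrays and -1.12, -1.02 and -1.19 on the MCT arrays. The median brightest-to-dimmest ratio became 1.41-fold, and 194 of the 200 kept within 2-fold. The evenness of these circRNAs is thus an evenness relative to the other probes of the same array.

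**Figure D1:**
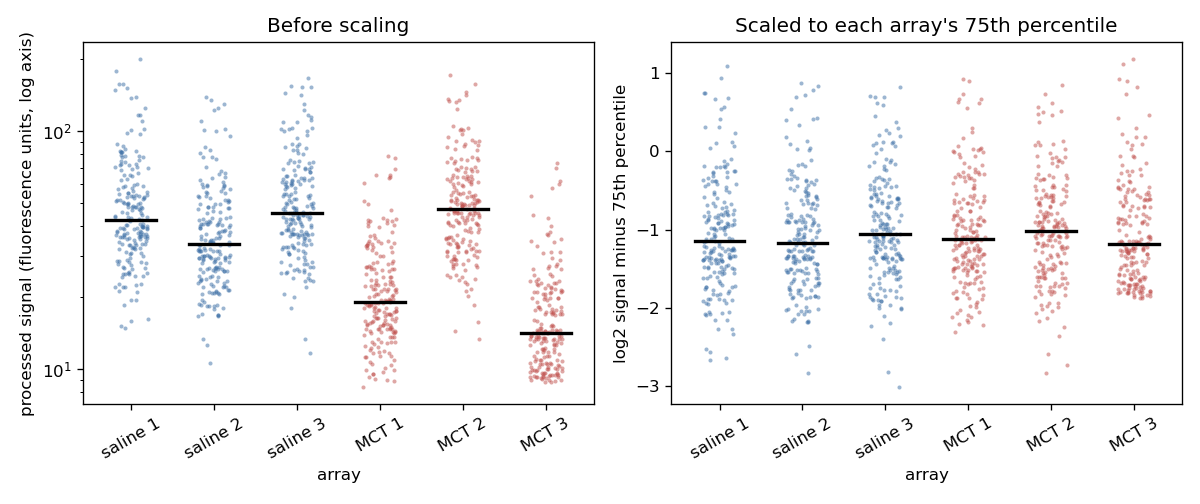
Signal of the 200 circRNAs on each array, on the left as processed signal in fluorescence units on a log axis, on the right as log2 signal minus the array's 75th percentile. Each point is 1 circRNA (blue saline, red MCT) and the black bar is the median; unscaled medians run from 14.2 to 46.9 units, scaled medians from -1.19 to -1.02.

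The circRNA with the smallest spread of all, ASCRPR003721, read 26.2, 21.3 and 28.3 units on saline arrays 1 to 3 and 14.2, 31.1 and 9.98 units on MCT arrays 1 to 3. Scaled, these became -1.84, -1.83 and -1.74 in saline and -1.54, -1.61 and -1.69 in MCT lungs. In the authors' values its SD was 0.035, and on the scaled signal it was 0.12, where it ranked 38th among the 7125. All 3 scaled MCT values lay above all 3 saline values although the spread was this small. ASCRPR007580 read 156.8, 130.0 and 153.0 units in saline and 63.6, 141.5 and 57.3 units in MCT lungs. Its scaled values were 0.74, 0.78 and 0.70 against 0.62, 0.57 and 0.83, so the groups overlapped and MCT 3 was the highest array. It was among the brighter spots of the set, with an SD of 0.097 on the scaled signal. ASCRPR000678 had scaled values of -1.45, -1.63 and -1.78 in saline and -1.52, -1.60 and -1.62 in MCT lungs, with the MCT values inside the range of the saline ones.

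The same order did not hold for each of the 10 circRNAs with the smallest SD of the authors' values. ASCRPR002311 was second by the authors' values (SD 0.045), and on the scaled signal it read -1.35, -1.36 and -1.35 in saline but -1.57, -1.47 and -1.85 in MCT lungs. The saline lungs were nearly identical and all MCT lungs lay lower, which gave an SD of 0.19 and rank 292. ASCRPR003299, the last of the 10 with an SD of 0.061 in the authors' values, had an SD of 0.30 on the scaled signal and rank 1171, as its value on MCT 3 fell to -1.87 against -1.36 to -1.03 on the other 5 arrays. The others, ASCRPR002819, ASCRPR007606, ASCRPR006820, ASCRPR009334 and ASCRPR010711, had SDs of 0.13, 0.17, 0.16, 0.17 and 0.15 on the scaled signal.

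**Figure D2:**
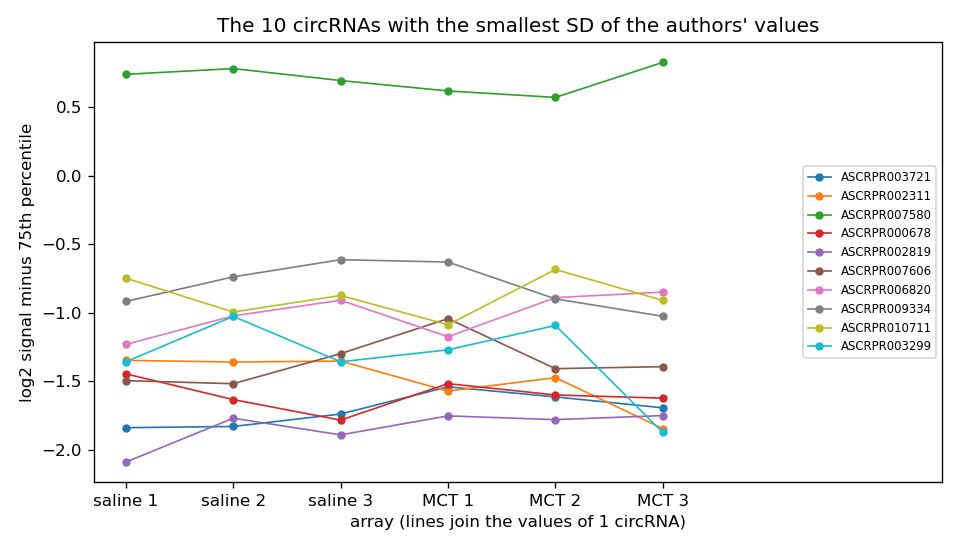
Scaled log2 signal of the 10 circRNAs with the smallest SD of the authors' values, on the 6 arrays; each line joins the values of 1 circRNA. Lines wander without a shared direction, and ASCRPR002311 and ASCRPR003299 drop on MCT 3 to -1.85 and -1.87.

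On the scaled processed signal, which the rule did not use but which comes from the same spots, the 200 circRNAs had a median SD of 0.19 (range 0.060 to 0.45), against 0.49 for the other 6925 eligible circRNAs. All 200 had an SD below the eligible median of 0.48. Only 84 of them, however, were among the 200 with the smallest SD of the scaled signal, 134 were among the 400 smallest, and 166 among the 712 smallest. The median rank was 271.5 and the worst 3175. The count of 84 became 48 without MCT 3, 22 without both MCT 1 and MCT 3, and 0 without scaling. It became 170 when normexp background correction of the median signal and quantile normalization replaced the scaling. That correction added an offset of 50 units, which narrows log2 ratios most among dim spots. How much of the 170 this sets was not tested. Across the 200, the SD of the authors' values and that of the scaled signal had a Spearman correlation of 0.21, and over all eligible circRNAs 0.87. The rule confined the members to SDs of 0.035 to 0.134 in the authors' values, while the others reached 1.98. So narrow a range lowers a correlation, and the 2 values are not alike. These correlations are descriptions over circRNAs that share 6 arrays. At the threshold, the last circRNA inside, ASCRPR008855, had an SD of the authors' values of 0.134 and the first outside, ASCRPR013865, one of 0.135. On the scaled signal these 2 had SDs of 0.21 and 0.18. The last 5 inside ran from 0.13 to 0.25 on the scaled signal and the first 5 outside from 0.15 to 0.28, so that nothing but the rank separates them.

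Measured on the scaled signal, ASCRPR005475 was the most even of all 7125 eligible circRNAs. It read 102.3, 85.8 and 101.8 units in saline and 42.2, 101.8 and 32.9 units in MCT lungs. Its scaled values were 0.12, 0.18 and 0.11 in saline and 0.03, 0.10 and 0.02 in MCT lungs, a span of 1.12-fold from the lowest to the highest array. ASCRPR008648 had scaled values of 0.57, 0.55 and 0.61 against 0.63, 0.51 and 0.42, an SD of 0.077 with overlapping groups. ASCRPR012962, a dim spot, had -1.56, -1.55 and -1.55 against -1.44, -1.58 and -1.70, an SD of 0.085. Its saline values were almost the same and its MCT values spread to both sides of them. ASCRPR010550 and ASCRPR006622 completed the 5 smallest among the 200, with SDs of 0.087 and 0.092. In both, each MCT value lay below each saline value, at mean differences of -0.12 and -0.14. The same held for ASCRPR005475, at -0.09.

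Of the 20 members with the widest scaled spread, 9 had a mean below -1.5, as did 50 of all 200. ASCRPR013482 had the largest SD, 0.45, at 16.3, 10.6 and 13.4 units in saline and 10.5, 14.4 and 9.32 units in MCT lungs. Unscaled it was the most even of the set (1.75-fold from lowest to highest), and scaled it read -2.52, -2.83 and -2.82 against -1.97, -2.72 and -1.79. The dim arrays MCT 1 and MCT 3 held its highest scaled values. ASCRPR010480 read 19.6, 16.7 and 11.7 units in saline and 11.3, 18.6 and 9.34 units in MCT lungs, with a scaled SD of 0.44. ASCRPR002240 went the other way: it read 58.1, 41.3 and 48.0 units in saline and 19.6, 47.3 and 8.91 units in MCT lungs, and its scaled values fell from -0.69, -0.87 and -0.98 to -1.08, -1.01 and -1.86. Its SD was 0.40. MCT 3 stood far below the other arrays. In the authors' values these 3 had SDs of 0.13, 0.12 and 0.11.

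Signals on MCT 3 lay close to the limit of detection. The lowest signal of any probe well above background there was 8.67 units, or -1.90 on the scaled axis, against -2.76 on MCT 1 and -4.08 to -3.34 on the other 4 arrays. Of the 200, 127 (63.5%) lay within 2-fold of that signal on MCT 3, as did 27.6% of all eligible circRNAs. On MCT 1 it was 24, and on the other 4 arrays 0 to 4. Since the rule demanded detection on all 6 arrays, no member could read below about -1.90 on MCT 3, while on the other arrays 13 to 21 members did. Of the 20 members with the largest scaled SD, 18 lay within 2-fold of the limit on MCT 3.

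The rule drew its members from the dimmer eligible spots. Their mean scaled signal had a median of -1.15 (range -2.44 to 0.92) against -0.10 for the other eligible circRNAs, and 185 of 200 averaged below the 75th percentile, as did 52.7% of the others. When the eligible circRNAs were ordered by mean scaled signal and divided into 10 equal bins, the dimmest bin held 49 of the 200, the next 55, then 33, 27, 16, 10, 6 and 4, and the 2 brightest bins held 0. The 200 circRNAs with the smallest SD of the scaled signal were spread more widely, with 15 to 34 in each of the 8 dimmer bins and 6 in each of the 2 brightest. In the authors' values, the median SD of the eligible circRNAs that were not members grew from 0.28 in the dimmest to 0.62 in the brightest bin. On the scaled signal it was 0.52 in the dimmest, 0.42 in the next, and 0.64 in the brightest bin. Spearman's correlation of SD with mean over the eligible circRNAs was 0.55 in the authors' values and 0.21 on the scaled signal. Within each array, the authors' values followed the spot's median brightness, which still contains the surround (Spearman's correlation 0.983 to 0.999 over all circRNAs). Across the 200 circRNAs they rose by only 0.61 to 0.67 per doubling of the background-subtracted signal, and across all eligible ones by 0.77 to 0.85. A given ratio of processed signals thus spanned a smaller distance in the authors' values among the members. How much of the choice this sets was not tested.

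**Figure D3:**
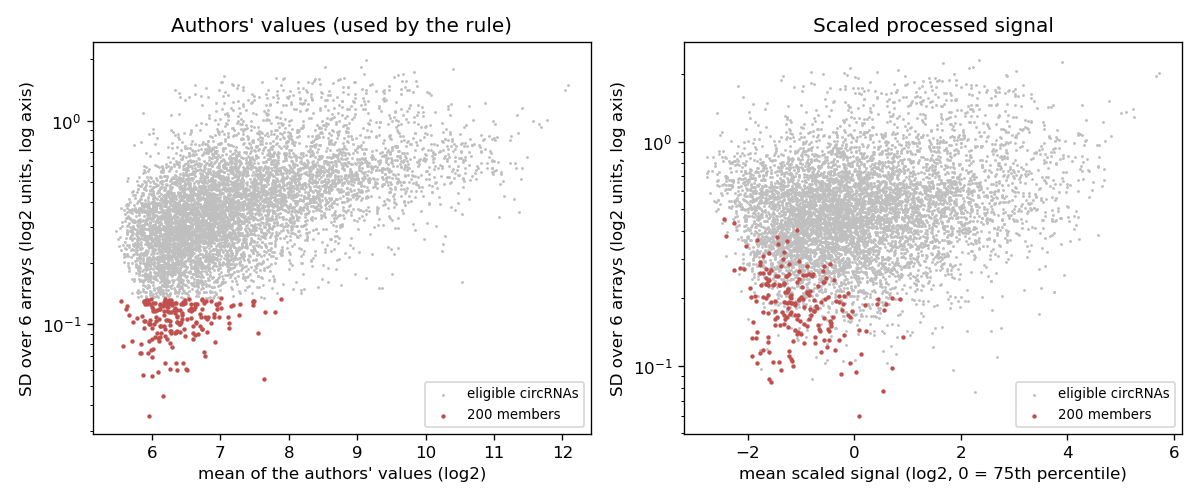
SD over the 6 arrays (log axis) against the mean over the 6 arrays for the eligible circRNAs (grey) and the 200 members (red), on the left in the authors' log2 values and on the right on the scaled processed signal. The members lie under 0.135 on the left by construction, and between 0.060 and 0.45 on the right.

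**Figure D4:**
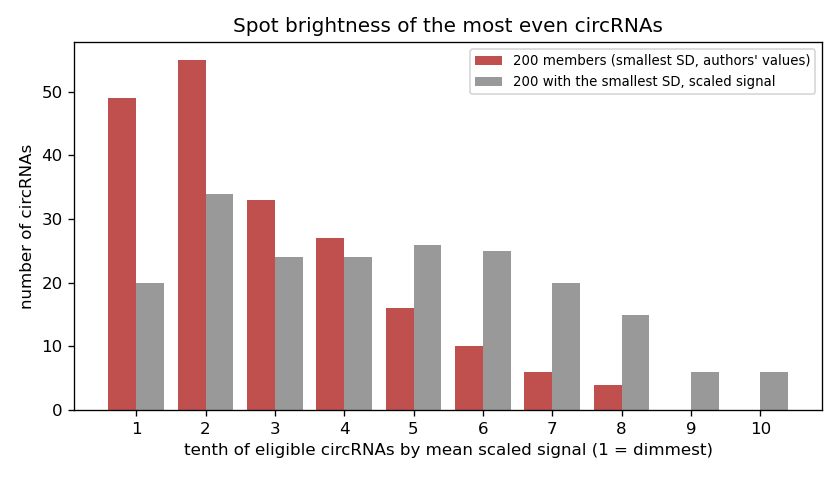
Number of circRNAs in each of 10 equal bins of the eligible circRNAs ordered by mean scaled signal (1 is the dimmest), for the 200 members (red) and for the 200 with the smallest SD of the scaled signal (grey). Red falls from 49 and 55 to 0 in the 2 brightest bins, grey from 34 at its highest to 6.

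Within the groups, the 200 circRNAs had a median SD of 0.16 over the 3 saline and 0.18 over the 3 MCT arrays on the scaled signal. For the other eligible circRNAs these medians were 0.32 and 0.50. The saline SD exceeded the MCT SD in 77 of the 200 and in 31.9% of the others. Each member's farthest array from its own mean was MCT 3 in 55 cases, MCT 1 in 42, and each of the remaining arrays in 23 to 29. Among the other eligible circRNAs MCT 3 was the farthest in 47.2%. The median deviation of the 200 from their own means ran from -0.06 on saline 2 to 0.07 on saline 3, so no array moved them all together by much. On saline 3, 127 of the 200 lay above their own mean, and on saline 2, 69 did. Taken as scaling factors, the arrays' mean log2 signals over the 200 differed from their 75th percentiles by at most 0.059 after centring, with saline 2 lowest at -0.06 and saline 3 highest at 0.05. The choice of even circRNAs on these arrays favours such closeness.

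A measure only partly fixed by the choice came from repeating the rule on 5 arrays and reading the array left out. The rule favours dim spots, and in the authors' values dim spots had smaller SDs. The ratios in this paragraph are therefore not at like brightness. Deviations were taken from the mean of the 5 arrays, over circRNAs well above background on the array left out, although all arrays had been normalized together by the authors. In the authors' values, the chosen circRNAs had a median absolute deviation of 0.15, 0.15 and 0.16 on saline 1 to 3, and of 0.23, 0.13 and 0.39 on MCT 1 to 3. The other eligible circRNAs had 0.28, 0.23 and 0.32, and 0.32, 0.28 and 0.46. The chosen ones lay closer on 6 of 6 arrays, at 0.469 to 0.832 times the deviation of the others. The 0.832 belongs to MCT 3, where only 139 of the 200 chosen were detected. On the scaled signal the ratio ran from 0.593 (MCT 2) to 0.909 (MCT 3), again below 1 on 6 of 6 arrays. The share of chosen circRNAs within 1.5-fold of the mean of the other 5 arrays was 86.5% to 93.5% on the first 5 arrays and 52.5% on MCT 3, against 68.6% to 77.4% and 47.3% of the others. The median absolute deviation of the chosen circRNAs on the scaled signal was 0.21 to 0.26 on those 5 arrays and 0.56 on MCT 3.

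MCT 3 weighed most on who was chosen. Without it only 57 of the 200 chosen were among the final members. Leaving MCT 3 out also lifted the demand for detection there, so 8549 circRNAs were eligible in place of 7125. The count of 57 thus mixes that demand with the spread. Of the 200 chosen, 139 (69.5%) were well above background on MCT 3, against 83.3% of all circRNAs eligible on the other 5 arrays. The deviations on MCT 3 cover those 139 alone. CircRNAs below detection there are left out, and these were a larger share of the chosen ones. This may lower the ratio on MCT 3, and by how much was not tested. Without MCT 1 the count was 112, and without any of the other 4 arrays 133 to 146. The advantage held in part at like brightness. With circRNAs divided into 4 equal bins by mean scaled signal over the other 5 arrays, the median ratio over the 6 arrays in the authors' values was 0.664 in the dimmest bin, then 0.784 and 0.795. It was below 1 on 6, 6 and 5 of 6 arrays. On the scaled signal it was 0.657, 0.762 and 0.705, below 1 on 5, 6 and 6 arrays. On MCT 3 the scaled ratios in these bins were 1.04, 0.94 and 0.94. The brightest bin held 0 to 3 chosen circRNAs and gave no usable value.

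**Figure D5:**
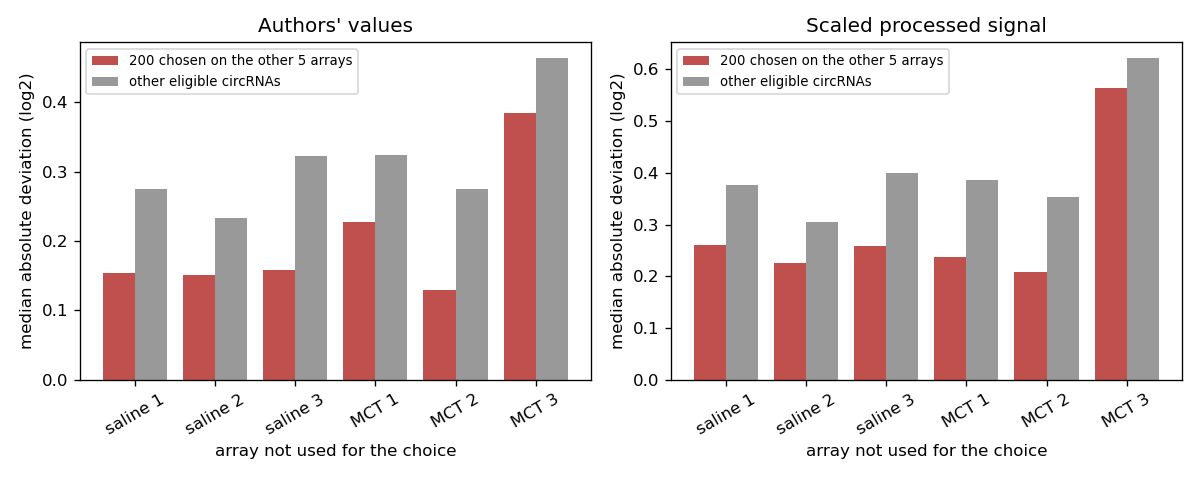
Median absolute deviation (log2) on each array from the mean of the other 5 arrays, for the circRNAs chosen by the rule on those 5 (red) and for the other eligible ones (grey), in the authors' values (left) and on the scaled signal (right). Only circRNAs well above background on the array left out are counted. Of the 200 chosen, these were 190 on MCT 1, 199 on MCT 2, 139 on MCT 3 and all 200 on each saline array. Red is below grey on all 6 arrays, least so on MCT 3 (0.56 against 0.62, scaled).

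The rule was also run within each group and its choice read in the other group. When the rule was run on the 3 saline arrays alone, 9 of its 200 circRNAs were members, and 90 (45%) were well above background on all 3 MCT arrays, against 67% of all circRNAs eligible on the saline arrays. Those 90 had a median SD over the MCT arrays of 0.45 on the scaled signal, against 0.49 for the other circRNAs detected there, a ratio of 0.912 (0.821 in the authors' values). Run on the 3 MCT arrays alone, it chose 63 members among its 200, which had a median SD over the saline arrays of 0.32 against 0.31, a ratio of 1.03. In the authors' values that ratio was 0.872, so the scales differ in direction. Within 4 equal bins of brightness the ratios on the scaled signal ran from 0.745 to 1.18 in the first case and from 0.885 to 1.11 in the second. An SD over 3 arrays is itself imprecise, and how much this contributes was not tested.

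Between MCT and saline lungs, the 200 differed little, which the rule fixes because the SD over 6 arrays contains that contrast. Their scaled log2 differences, MCT minus saline, ran from -0.47 to 0.56 with a median of 0.04, and 114 of 200 were above 0. Over all 11280 circRNAs tested with limma the median was -0.04. All 200 differed by less than 1.5-fold, as did 65.8% of all tested. None of the 200 passed a limma adjusted p of 0.05, a background of 0.0177% of all tested (2 of 11280, which became 106 without MCT 2), and none had an unadjusted p below 0.05, against 11.5% of all tested. By the looser rule of an unadjusted p below 0.05 with at least 1.5-fold, 0 of 200 were higher (background 4.9%) and 0 lower (6.64%), and nothing is read from these counts. The moderated 95% interval lay within 2-fold in both directions for 166 of the 200 and for 18.1% of all tested, and within 1.5-fold for 0. None of these intervals was narrow enough to leave out a 1.5-fold change in both directions. The median standard error was 0.34, and limma draws each variance toward that of all circRNAs. The width is therefore not a measure of the members' own spread. ASCRPR005475, with a scaled SD of 0.060, had a standard error of 0.32, and ASCRPR013482, with an SD of 0.45, one of 0.37.

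Small spread and separated groups occurred together in 26 of the 200 (13%), against a background of 14.7% of all tested circRNAs. In 12 each MCT value lay above each saline value (background 7.62%), by 0.15 to 0.51, and in 14 each lay below (7.07%), by -0.47 to -0.09. The shares are near the background, and the rule used the same values, so they are no result about the set. The largest positive differences belonged to the dim spots ASCRPR013482, at 0.56 ± 0.37 (SE), and ASCRPR007593, at 0.51 ± 0.35 (SE). ASCRPR007593 read 22.2, 16.9 and 24.2 units in saline and 13.1, 26.2 and 14.4 units in MCT lungs. Unscaled it was not higher in MCT lungs, as 2 of the 3 MCT arrays lay below all saline arrays. The largest negative ones belonged to ASCRPR002240, at -0.47 ± 0.37 (SE), and ASCRPR005641, at -0.35 ± 0.34 (SE). ASCRPR005641 had scaled values of -1.47, -1.27 and -1.02 in saline and -1.66, -1.47 and -1.69 in MCT lungs. The brightest spots of the set, ASCRPR008212 and ASCRPR012449, differed by -0.05 and 0.11. ASCRPR012449 read 179.2, 135.3 and 166.5 units against 77.1, 171.7 and 73.3 units, and scaled 0.93, 0.84 and 0.82 against 0.90, 0.85 and 1.18. Without scaling, all 200 were lower in MCT lungs, with a median difference of -0.76, and 8.97% of all tested circRNAs were higher.

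Linear transcripts measured in the same digested RNA gave a scale for this spread. Of 62 linear probes with 10 spots each, 20 were detected on all 6 arrays, and their SD over the arrays had a median of 0.43 (range 0.15 to 0.67). They had not been chosen for evenness, so the difference from the members is no test. The eligible circRNAs outside the set had a median SD of 0.49, which was not below that of the linear probes. Linear values were also averaged over repeated spots, while each circRNA had 1 spot per array. Among probes of widely used reference transcripts, beta-actin (Actb) had an SD of 0.61, with 1.24 on MCT 3 against 2.47 to 2.96 on the other 5 arrays. The chaperone Hsp90ab1 had 0.30, the succinate dehydrogenase subunit Sdha 0.31, the ribosomal protein transcript Rpl13a 0.34, beta-2-microglobulin (B2m) 0.42, the lactate dehydrogenase subunit Ldha 0.44 and 0.42 at its 2 probes, and the lysosomal enzyme Gusb 0.67. All 8 reference probes had a larger SD than at least 188 of the 200 circRNAs. Dlg4, a synaptic scaffold gene and no usual reference, was the most even linear transcript at 0.15, and 53 of the 200 had a smaller SD. Signals of linear transcripts here are what the digestion left, not their level in the tissue.

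For many of the 200, the spread between lungs was near the error that the extraction software assigned to a single spot. This assigned error was on average 10.1% to 17.1% of the signal, or a median of 0.18 on the log2 scale. For 82 of the 200 the SD over the 6 scaled arrays was smaller than that error, and so was it for 68 of the 6925 others. The rule chose the 200 for small spread over these spots, and the median error of the others was lower, at 0.15. The difference between the counts is thus no result about the set. The repeated spots of linear probes within 1 array varied less than the software's error. For the 12 linear probes within the brightness range of the 200, the median SD between spots was 0.11, and 15 of the 200 had an SD over arrays below it. Each circRNA had 1 spot per array, so its own spot-to-spot error was not measured. None of the 200 was marked as an outlier spot on any array, but only 1 to 6 of all 14145 circRNA spots per array were. The local surround was alike, at a median of 17.7 units for the 200 and 17.8 units for the others. By position, 63 of the 200 (31.5%) lay in the lower left of the array and 43 to 48 in each of the other 3 parts of equal size, against 24.7% to 25.2% of the other eligible circRNAs in each.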

How the data were processed

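Lung circRNA was measured on 6 Agilent-format 1-colour arrays, 1 per sample. Per the labels' protocols, RNase R digestion and random-primer labelling preceded hybridization. The file headers name Agilent Feature Extraction 11.0.1.1. The authors deposited its spot intensity values: background-subtracted processed signal, median spot and surround brightness, the software's error and its yes-or-no marks, with no scaling between arrays. The authors' table holds log2 values whose columns share their maximum (17.6) and nearly their median (6.06 to 6.08). Its background treatment is not given in the sources used here, though the submitters' processing notes list limma.

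Spots marked as outliers were left out, spots of 1 probe averaged, and each array's 75th percentile over all non-control probes subtracted from log2 processed signals. CircRNAs that reached well above background on 3 or more arrays were tested with limma 3.58.1 in R 4.3.3 (lmFit, eBayes, no covariate, Benjamini-Hochberg). The procedure was run on simulated data with independent noise and changes larger than any among the members. That run does not cover differences as small as theirs. Spreads were computed with Python 3.11.15. The number of arrays limits the precision. Named circRNAs were the extremes in SD, mean signal and difference, and those around the threshold. The members and lists were chosen with earlier results of these data known. Alternatives covered scaling, background correction (normexp with an offset of 50 units), filters, slide scan, a replicate block and leaving arrays out.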

Additional observations from a re-analysis of the deposited data

How the results depend on the processing

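The median SD of the 200 circRNAs on the scaled signal, 0.19, became 0.72 without scaling, 0.21 with the 75th percentile over probes seen on all 6 arrays, 0.064 with normexp and quantile normalization, 0.11 in the authors' values that chose them, 0.17 in the arrays of slide scan 1 alone and 0.16 without both MCT 1 and MCT 3. Leaving out each array in turn gave 0.18 to 0.19. The 0.064 was computed with an offset of 50 units added, which narrows log2 ratios most among dim spots. Their count among the 200 smallest SDs, 84, became 0 without scaling, 170 with normexp and quantile normalization, 22 without both MCT 1 and MCT 3, and 48 to 77 with 1 array left out. The count below the eligible median kept within 168 to 200 of 200 in all settings run (199 to 200 with 1 array left out). The ratio of deviations on the array left out, 0.603, was 0.784 and 0.795 within the middle 2 of 4 bins of brightness. The median difference of the 200, 0.04, became -0.76 without scaling and ran from -0.00088 to 0.064 with 1 array left out. Of 34 named circRNAs, 30 had an SD over 1.5 times larger without scaling, 31 one over 1.5 times smaller with normexp and quantile normalization, and in the authors' values 24 had a smaller and 1 a larger one. In the other settings run at most 3 were larger and 7 smaller by that much, the 7 without MCT 3.

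No member passed an adjusted p of 0.05 in any limma fit (0 to 0 with 1 array left out). By the looser rule 0 to 1 did with 1 array left out, the 1 without MCT 2. Over all circRNAs tested, the 2 calls at an adjusted p of 0.05 became 1 without scaling, 0 with normexp, in the authors' values and with detection on all 6 arrays, 4 with a trended and robust prior, 131 with slide scan as a block, 184 in slide scan 1 alone, and 1 to 106 with 1 array left out (106 without MCT 2). The 1302 looser calls became 687 with normexp, 2171 with no filter on dim probes, 2278 in slide scan 1 alone, and 646 (without MCT 1) to 2723 (without MCT 2) with 1 array left out, where leaving out saline 1 gave 704 and saline 2 gave 721. The cause was not tested.

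With the replicate block, 30 circRNAs and 0 members passed. The replicate numbers did not pair the samples: arrays of the same number had deviation correlations of -0.23, -0.36 and -0.45, and for 0 of 6 was the same-numbered array the closest. Leaving out both dim arrays and scaling to the members were chosen after seeing the data.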

Other observations

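Scaling each array to the mean log2 signal of the 200 circRNAs in place of its 75th percentile changed the comparison of MCT with saline lungs little. The rule chose the 200 for evenness over these same arrays, so this is no test of them as a reference. At a limma adjusted p of 0.05 it gave 2 circRNAs of 11280, as before, and by the looser rule 463 higher and 798 lower, against 553 and 749. The share of all tested circRNAs with higher values in MCT lungs was 45.1% against 47.1%. Setting the 200 brightest circRNAs aside mattered little to the choice, since with them kept 2 would have entered and 198 of the 200 remained.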
